A study of Homo sapiens with 6 samples.

Results

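The replication-dependent histone genes are the gene copies H1-1 to H1-5 and the numbered H2AC, H2BC, H3C and H4C copies. They were chosen by gene symbol alone, and 68 of the 20476 genes in the table met that rule: 5 H1, 17 H2A, 18 H2B, 13 H3 and 15 H4 genes. Their level was read from RNA of SW620, an established human line of colorectal cancer cells that was grown from a metastasis in a lymph node. Cells of 3 libraries carried a stable hairpin directed at ECM1, a secreted matrix glycoprotein (shECM1), and cells of the other 3 a stable hairpin used as negative control (shNC). Every library came from the same line, and whether replicates were separate cultures or clones is not stated, so the p-values cover only sample-to-sample spread, which may be technical. The match of table columns to groups is an inference from the column letters, and all directions would turn round if it were wrong.

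Core histones H2A, H2B, H3 and H4 form the nucleosome, around which DNA is wound, and H1 linker histones bind where DNA enters and leaves it. Replication-dependent copies are transcribed mainly during S phase, when new DNA needs new nucleosomes. Their messages are unusual among those of animals, because most end in a short stem-loop in place of a poly(A) tail. The stem-loop binding protein SLBP recognises that hairpin and guides cutting of the 3' end. Some of these genes are also known to give longer, polyadenylated transcripts.

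Histone messages were therefore read from a difficult class of RNA. The labels' protocols mention total RNA extraction and also droplet libraries, of a kind usually primed on poly(A) tails. Which of these gave the deposited counts is not stated, and how far tail priming set the histone counts was not tested. A search for the hairpin (GGNNNTTNTNANNNCC, where N stands for 3 pyrimidines in the first arm, for a pyrimidine and then any base in the loop, and for 3 purines in the second arm) in GENCODE 29 transcripts found it in 29 of the 32 histone genes with an annotated 3' untranslated stretch. The core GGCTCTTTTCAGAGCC was the most common, in 15 genes. Cores of H4 genes differed from it, with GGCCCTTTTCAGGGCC in 5 genes and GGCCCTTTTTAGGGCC in 3. To show how these cores differ between classes, the hairpins of H3C6, which holds a variant core, and of 5 other genes are given 5' to 3' from GENCODE 29, with the core in capitals and 5 bases on each side.
H2AC6: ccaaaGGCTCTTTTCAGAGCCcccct
H2BC21: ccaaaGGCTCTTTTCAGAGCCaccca
H2BC5: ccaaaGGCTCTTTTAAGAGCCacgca
H2BC4: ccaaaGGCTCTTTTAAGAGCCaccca
H3C6: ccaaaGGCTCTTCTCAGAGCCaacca
H4C8: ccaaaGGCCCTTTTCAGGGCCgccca

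Few copies were read often. Of the 68 genes, 26 had at least 10 counts in 3 or more libraries and 18 had them in all 6 libraries. Another 8 genes reached 10 counts in 1 or 2 libraries. The remaining 34 never reached it, and 8 of those had 0 counts throughout, namely H1-1, H2AC1, H2AC7, H2BC1, H2BC3, H3C14, H4C6 and H4C7. A count of 0 allows a level of up to 0.179 to 0.298 CPM (counts scaled to a common library total) in a library, taken as 3 counts and covering counting error only. By class, 3 of 5 H1, 6 of 17 H2A, 10 of 18 H2B, 2 of 13 H3 and 5 of 15 H4 genes passed. Just inside the limit, H2BC17 had 3, 7 and 20 counts in shECM1 replicates 1, 2 and 3, and 4, 10 and 13 in shNC replicates. H2AC17 had 4, 10 and 11 counts in shECM1 and 2, 11 and 8 in shNC. Just outside it, H2BC7 had 6, 5 and 8 counts in shECM1 and 9, 10 and 11 in shNC, and H3C8 had 4, 7 and 8 in shECM1 and 7, 10 and 11 in shNC.

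**Figure D1:**
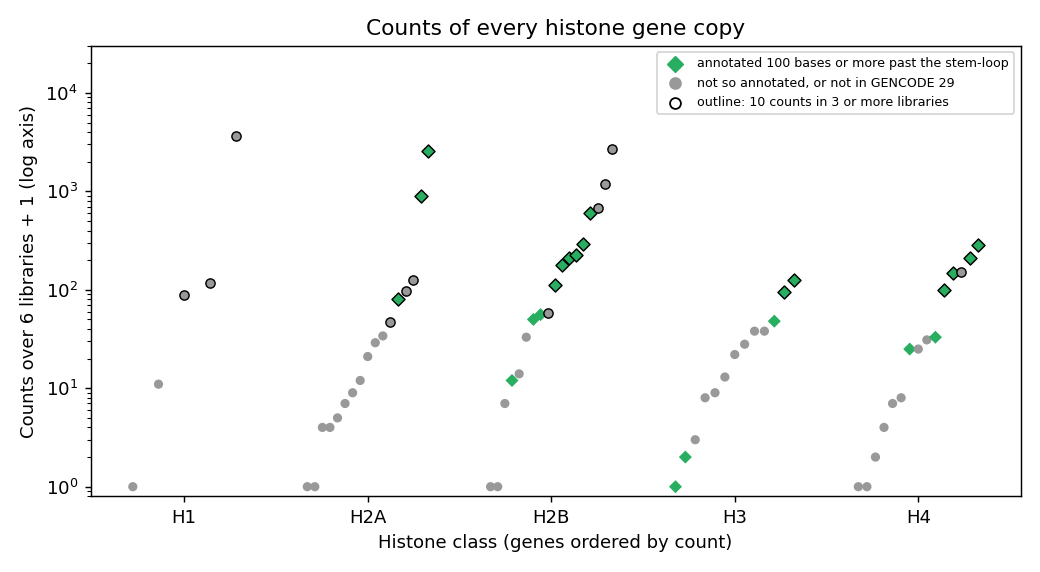
Counts of each of the 68 histone gene copies summed over the 6 libraries, plus 1, on a log axis by histone class. Diamonds mark copies annotated at least 100 bases past the stem-loop, and a black outline marks the 26 copies with 10 counts in 3 or more libraries.

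The copies that passed were more often those with a long annotated 3' end. In GENCODE 29, which held 64 of the 68 genes, 23 had a transcript running at least 100 bases past the hairpin, and 15 of these passed. Of the other 41, 11 passed. The annotated exons were also longer in the first set, with a median of 1929 bases against 393, so feature length and transcript form cannot be told apart here. For 32 genes the annotation held the coding sequence with no 3' stretch, and 7 of those passed, H1-2 and H2BC12 among them. In current RefSeq (GRCh38.p14), 8 of the 68 genes span over 1000 bases, and 6 of them passed. They include H2BC12 (chromosome 6, 27138293 to 27146858), H2BC5 (chromosome 6, 26158121 to 26171349), H2BC4 (chromosome 6, 26113170 to 26123926) and H2BC21 (chromosome 1, 149884459 to 149886682).

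Copies also share sequence, which limits how reads can be divided among them. Among 64 coding sequences, 33 held at least 1 stretch of 50 bases found in another copy, as did 14 of the 26 that passed. The coding sequences of H4C14 and H4C15, of H4C11 and H4C12, and of H3C14 and H3C15 were 100% identical in pairs, and none of these 6 genes passed. Of the genes that passed, H2BC18 shared 48.6% of its 50-base windows, H2BC21 47.1% and H2BC15 36.5%, and no other shared more than 25%. H2BC18 and H2BC21 were 94.4% identical in coding sequence. How the authors treated reads that fit several copies is not given in the sources used here, so the values of these 3 genes are uncertain. Exons of H2BC15 and H2AC15 overlap each other in the annotation and those of H2BC18 overlap FCGR1A, and strand use is not stated.

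A few genes carried most of the histone signal. H1-2, a linker histone (ENSG00000187837, chromosome 6, 26055740 to 26056470), gave 23.4% of the summed histone CPM. With H2BC12 (ENSG00000197903) and H2AC6 (ENSG00000180573, chromosome 6, 26124172 to 26124690) the share was 57.2%, and the first 8 genes gave 80.5%. Per kilobase of GENCODE 29 exon, the level averaged over all libraries was 88.3 CPM for H2BC12, 71.1 for H1-2, 19.3 for H2AC6, 16.9 for H2BC5 and 12.5 for H2AC25. The authors' own gene models may differ in length, most of all for H2BC12, whose GENCODE 29 model is only 381 bases long. The large gene cluster on chromosome 6 held 54 of the 68 genes and 86.1% of the summed CPM. The 13 genes on chromosome 1 held 12.6%, and H4C16, alone on chromosome 12, held 1.34%.

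Upstream sequences were compared because copies of a class are known to share promoter elements. RefSeq windows from 250 bases before to 50 after the start matched 63 of the 68 genes (GRCh38.p14), and both strands were searched. The octamer ATTTGCAT, known as the H2B element bound by octamer factors, was in 14 of 18 H2B and 11 of 16 H2A windows, 1 of 11 H3 windows, and no H1 or H4 window, against 2.19% of all 27305 gene promoters. Divergent gene pairs make this count less than independent, since 11 of the 16 H2A windows overlap an H2B window. The H1 box AAACACA was in 5 of 5 H1 windows, against 6.94% of all promoters. CCAAT was in every matched H1, H2A, H2B and H3 window but in 3 of 13 H4 windows, against 39.7% of all, and TATAAA was in 43 of the 63, against 14.0%. The 120 bases before the start are shown for H1-2 and 4 H2B genes of relatively high level, with these motifs in capitals. H2BC5 lacks the exact octamer in its window.
H1-2, chr6:26056471-26056590, minus strand: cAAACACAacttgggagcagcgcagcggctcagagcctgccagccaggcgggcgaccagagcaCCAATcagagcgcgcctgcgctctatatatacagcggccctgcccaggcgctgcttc
H2BC12, chr6:27146859-27146978, minus strand: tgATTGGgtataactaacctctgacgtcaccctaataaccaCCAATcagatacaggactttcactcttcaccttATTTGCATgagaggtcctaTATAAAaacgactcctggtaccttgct
H2BC11, chr6:27132796-27132915, minus strand: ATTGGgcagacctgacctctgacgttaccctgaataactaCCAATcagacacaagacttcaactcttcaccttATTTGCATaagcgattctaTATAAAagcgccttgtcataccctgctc
H2BC21, chr1:149886683-149886802, minus strand: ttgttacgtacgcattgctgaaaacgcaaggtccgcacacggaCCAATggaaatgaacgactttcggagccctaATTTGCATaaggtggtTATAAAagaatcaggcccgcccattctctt
H2BC5, chr6:26158001-26158120, plus strand: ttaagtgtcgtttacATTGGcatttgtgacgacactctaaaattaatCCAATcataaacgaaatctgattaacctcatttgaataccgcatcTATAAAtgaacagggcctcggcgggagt

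Partners across a shared promoter region were read unequally in some pairs and at similar counts in others. There were 12 divergent pairs of an H2A and an H2B gene, with 193 to 247 bases between the 2 genes. Both partners had 10 counts in 3 or more libraries in 6 pairs, 1 partner in 2 pairs and neither in 4. In 5 pairs 1 partner had over 8 times the counts of the other, and in 5 pairs the ratio was under 2.5, down to 1.24 for H2AC17 with 46 counts and H2BC17 with 57. Some of these low ratios rest on few counts, as for H2AC13 with 20 and H2BC13 with 32, and H2AC14 with 8 and H2BC14 with 13. In 1 further pair H2AC7 had 0 counts and H2BC7 had 49, and in the last both had 0. Over the 6 libraries H2BC12 had 2701 counts while its partner H2AC12 had 3, and H2BC21 had 603 while H2AC20 had 11. The imbalance ran the other way for H2AC6, with 2580 counts against 289 for H2BC4, and for H2AC25, with 906 against 110 for H2BC26. Annotated lengths differ between partners, so these are counts and not levels per length.

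As a check of the labels, ECM1 was at 14.8, 13.6 and 8.41 CPM in shECM1 replicates 1, 2 and 3, and at 38.8, 19.0 and 52.3 CPM in shNC. The groups did not overlap, and the log2 fold change (shECM1 over shNC) was -1.58 ± 0.32 (SE; edgeR quasi-likelihood adjusted p = 0.0973, and 0.000192 without shNC replicate 2). The second value is no further check of the labels, because shNC replicate 2 is the control of lowest ECM1 and is set apart below for that level. Library totals ran from 9881720 to 16813951 counts in shECM1 and from 11792872 to 14781799 in shNC. Of 10 colorectal epithelial markers 9 were tested, and the summed level of the list was 9667 to 11146 CPM in shECM1 and 10007 to 14368 CPM in shNC. Most of that sum came from KRT8 and KRT18, with means of 6812 and 3636 CPM over all libraries. EPCAM, VIL1, CEACAM5 and CDX2 followed at 495, 363, 22.9 and 16.4 CPM. CDH17, KRT20, LGALS4 and CDX1 were low, at 6.61, 1.27, 0.826 and 0.0119 CPM. Markers of other cell types were low, with summed levels in shECM1 against shNC of 16.7 to 20.9 against 23.5 to 35.5 CPM for 7 fibroblast genes, 5.06 to 6.66 against 5.24 to 15.9 CPM for 5 immune genes, and 8.04 to 9.22 against 9.73 to 12.1 CPM for 4 endothelial genes. PDGFRA, COL3A1, PTPRC, CD3E and KDR had 0 counts in every library, but other genes of these lists were read. COL1A1, LUM, LYZ and VWF averaged 12.98, 10.01, 8.24 and 6.97 CPM over all libraries, above CDH17, KRT20, LGALS4 and CDX1. The remaining genes of the lists averaged 2.47 CPM (PECAM1) or less. shNC replicate 2 lay nearest to the knockdown libraries in ECM1, and over the whole table it also lay nearer to them than to its own group. Its chi-square per gene, a measure of distance between 2 libraries, was 5.2, 8.28 and 10.45 against shECM1 replicates 1, 2 and 3. Against shNC replicates 1 and 3 it was 15.7 and 32.5. shECM1 replicate 3 in turn lay nearer to shNC replicate 2 (10.45) than to shECM1 replicates 1 and 2 (14.76 and 14.79). The measure was taken on raw counts, so it also grows with depth. The reasons were not tested, and histone values that turn on shNC replicate 2 are given with and without it. That library was set apart for these values, and leaving it out favours genes in which it lay near the knockdown. Calls made without it are therefore no separate evidence.

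The comparison asks whether ECM1 knockdown changed histone messages, and no histone gene was called different. Summed over all 68 genes, the level was 179.2, 190.1 and 204.4 CPM in shECM1 replicates 1, 2 and 3, and 211.2, 176.5 and 208.9 CPM in shNC replicates. The groups overlapped, with shNC replicate 2 the lowest of all libraries and shECM1 replicate 3 near the other controls. The means were 191.2 ± 12.7 CPM in shECM1 and 198.9 ± 19.4 CPM in shNC (SD, n = 3 each), a log2 ratio of -0.06 for which no test was made. Histone counts made up 0.0183% to 0.0206% of all counts in shECM1 and 0.0181% to 0.0212% in shNC.

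The same held for each class. H1 genes summed to 46.5 ± 6.61 CPM in shECM1 and 50.1 ± 6.83 CPM in shNC. H2A genes summed to 50.2 ± 2.33 and 47.9 ± 1.86 CPM in shECM1 and shNC. H2B genes, the class with the largest sum, gave 77.4 ± 11.6 CPM in shECM1 and 82.3 ± 10.1 CPM in shNC. H3 genes summed to only 4.72 ± 1.24 CPM in shECM1 and 5.77 ± 0.425 CPM in shNC, and H4 genes to 12.3 ± 4.3 and 12.8 ± 1.71 CPM in shECM1 and shNC (SD, n = 3 each). In all 5 classes the libraries of the groups overlapped. Such libraries also cannot tell a change in the share of cells in S phase from a change in histone RNA per cell.

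**Figure D2:**
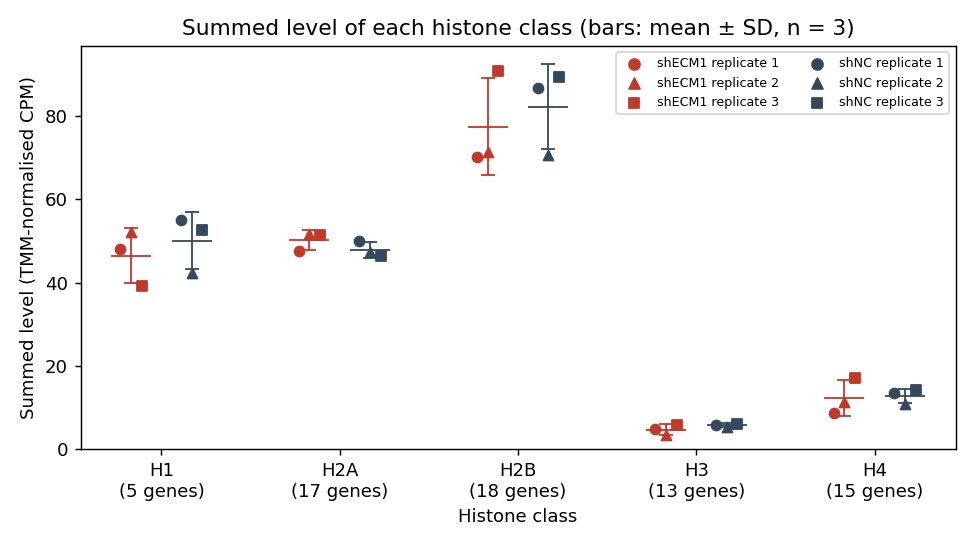
Summed TMM-normalised CPM of each histone class in every library, shECM1 left and shNC right, with mean ± SD (n = 3). H2B genes stand highest, at 70.1 to 90.9 CPM in shECM1 and 70.7 to 89.4 CPM in shNC, and the groups overlap in each class.

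Gene by gene, 24 of the 68 copies passed the count filter and were tested. edgeR's quasi-likelihood test called 0 of them at an adjusted p under 0.05, where it also called 0% of all 12576 genes tested (smallest adjusted p 0.206 among the 24 and 0.0973 among all). DESeq2 gave an adjusted p to 15 of the 24, not to the other 9, and called 0 of those 15, against 6.04% of all genes with such a p. At an unadjusted p under 0.05, 1 of the 24 was lower and 0 were higher, against 14.2% lower and 8.31% higher among all genes (22.5% in either direction). The groups did not overlap in 1 of the 24, which was higher, against 11.2% higher, 13.2% lower and 24.4% in all among all genes. With no count filter, edgeR called 0 of 60 histone genes against 3.08% of all, and 3 of the 60 had an unadjusted p under 0.05, against 19.5% of all. Log2 fold changes ran from -0.79 to 0.34, with 14 negative and 10 positive and 19 within 0.5 of zero. Their median was -0.08, beside 0.01 for all genes tested. That median depended on single libraries, at -0.35 without shECM1 replicate 3, -0.23 without shNC replicate 2 and 0.03 without shECM1 replicate 2.

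**Figure D3:**
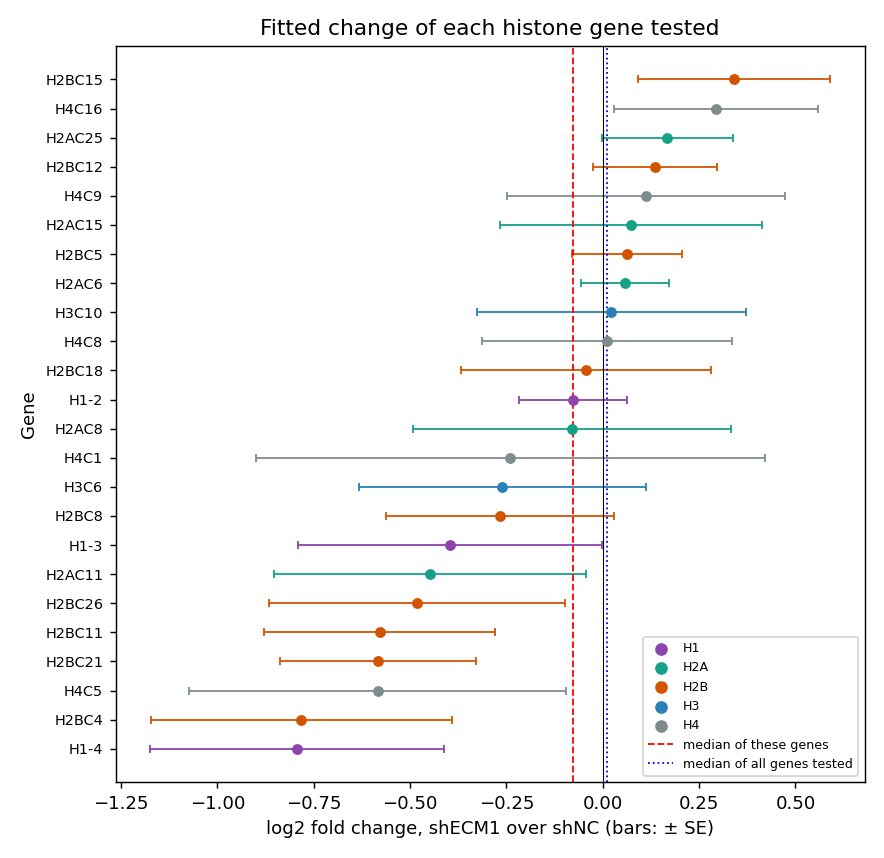
Fitted log2 fold change (shECM1 over shNC) of the 24 histone genes tested, with standard errors, coloured by class. The dashed line is their median (-0.08) and the dotted line the median of all genes tested (0.01), and all values lie between -0.79 and 0.34.

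The linker histone genes that were tested are H1-2, H1-4 and H1-3. H1-2 was at 46.1, 49.3 and 38.0 CPM in shECM1 and at 51.6, 40.0 and 49.0 CPM in shNC, with fully overlapping groups (log2 fold change -0.08 ± 0.14, edgeR adjusted p = 0.773). H1-4 was at 0.894, 1.43 and 0.732 CPM in shECM1 and at 1.86, 1.22 and 2.36 CPM in shNC. Its log2 fold change was the lowest of the 24, at -0.79 ± 0.38 (edgeR adjusted p = 0.241), but the groups overlapped, since shNC replicate 2 lay below shECM1 replicate 2. Without shNC replicate 2 the value for H1-4 was -1.0 (edgeR adjusted p = 0.0701), still uncalled. H1-3 was at 0.945 ± 0.376 CPM in shECM1 and 1.24 ± 0.22 CPM in shNC (SD, n = 3 each).

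Among H2A genes, H2AC6 was the steadiest in the knockdown. It stood at 32.6, 33.0 and 32.9 CPM in shECM1 and at 34.0, 30.6 and 30.1 CPM in shNC (log2 fold change 0.06 ± 0.11, edgeR adjusted p = 0.789). H2AC25, the partner of H2BC26 on chromosome 1, was at 9.63, 12.6 and 13.2 CPM in shECM1 and 11.3, 10.5 and 9.95 CPM in shNC. The knockdown libraries lay on both sides of the control libraries. H2AC15 was at 1.57 ± 0.367 CPM in shECM1 and 1.5 ± 0.444 CPM in shNC (SD, n = 3 each).

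H2B genes, tested in 9 copies, varied in different ways. H2BC12 was at 29.98, 30.9 and 44.7 CPM in shECM1 and 34.7, 31.3 and 30.3 CPM in shNC, so that shECM1 replicate 3 alone stood high (log2 fold change 0.14 ± 0.16, edgeR adjusted p = 0.636). H2BC5 hardly varied, at 14.1, 15.4 and 15.7 CPM in shECM1 and 13.5, 15.7 and 14.1 CPM in shNC. H2BC21, H2BC11 and H2BC4 had the largest negative values of the class. H2BC21, a copy known to give polyadenylated transcripts as well, was at 7.05, 5.54 and 5.71 CPM in shECM1 and at 8.88, 6.03 and 12.3 CPM in shNC. H2BC11 was at 5.06, 7.33 and 7.76 CPM in shECM1 and at 13.3, 5.46 and 11.7 CPM in shNC. H2BC4 was at 2.78, 2.26 and 3.0 CPM in shECM1 and at 4.91, 1.94 and 6.94 CPM in shNC.

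In these 3 genes shNC replicates 1 and 3 lay above every shECM1 library, whereas shNC replicate 2 lay within or below them. The log2 fold changes were -0.58 ± 0.25 for H2BC21, -0.58 ± 0.30 for H2BC11 and -0.78 ± 0.39 for H2BC4. The adjusted p from edgeR was 0.206 for H2BC21, 0.273 for H2BC11 and 0.258 for H2BC4, so none was called. H2BC21 was the 1 copy with an unadjusted p under 0.05. Without shNC replicate 2, edgeR called these 3 of 26 histone genes tested, all lower, while it called 23.9% of all genes, 14.1% lower. The values were then -0.80 (adjusted p = 0.0166), -0.87 (0.00966) and -1.14 (0.00755) for H2BC21, H2BC11 and H2BC4. The library left out is the control that lay within or below the shECM1 libraries in these 3 genes. Its removal cuts the spread of the controls, so these calls are no separate evidence of a change.

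H2BC15 was the only tested copy whose groups did not overlap. It was at 3.28, 3.04 and 3.15 CPM in shECM1 and at 2.96, 2.37 and 2.15 CPM in shNC. The log2 fold change was 0.34 ± 0.25 (edgeR adjusted p = 0.427), and its counts are uncertain for the reasons given above. H2BC26 was at 1.19 ± 0.373 CPM in shECM1 and 1.64 ± 0.561 CPM in shNC (SD, n = 3 each).

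**Figure D4:**
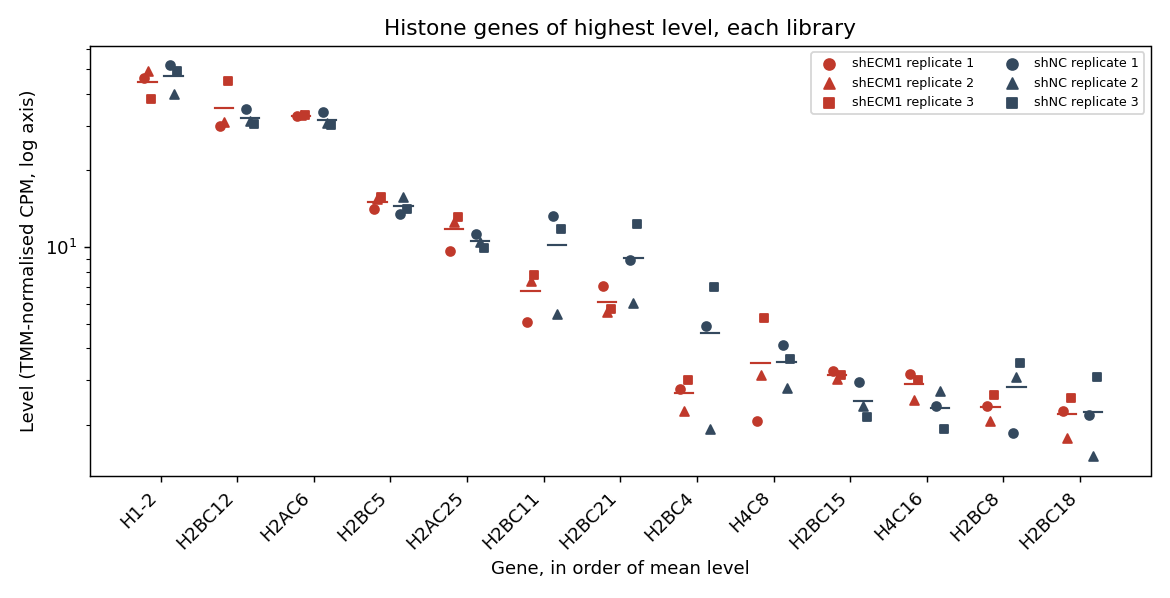
TMM-normalised CPM, on a log axis, of the 13 tested histone genes of highest level in each library, shECM1 left and shNC right of each position, with a line at the group mean. In H2BC11, H2BC21 and H2BC4 the triangle of shNC replicate 2 lies among or below the shECM1 libraries.

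H3 and H4 copies were read at low levels. H3C6 was at 1.79, 0.775 and 1.83 CPM in shECM1 and at 1.52, 1.58 and 2.004 CPM in shNC, and H3C10 was at 1.2 ± 0.325 CPM in shECM1 and 1.16 ± 0.0215 CPM in shNC (SD, n = 3 each). H3C8 was too low to be tested, at 0.467 ± 0.103 CPM in shECM1 and 0.699 ± 0.099 CPM in shNC. H4C16 was at 3.18, 2.502 and 3.0 CPM in shECM1 and at 2.37, 2.73 and 1.93 CPM in shNC (log2 fold change 0.29 ± 0.26, edgeR adjusted p = 0.523).

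H4C1, H4C5 and H4C8 of chromosome 6 spread widely within the knockdown. H4C1 had 2, 18 and 51 counts in shECM1 replicates 1, 2 and 3, which is 0.199, 1.07 and 3.73 CPM, and it was at 1.78, 1.08 and 3.22 CPM in shNC. H4C5 was at 0.596, 0.834 and 2.93 CPM in shECM1 and at 2.20, 1.80 and 2.65 CPM in shNC. H4C8 was at 2.08, 3.16 and 5.27 CPM in shECM1 and at 4.15, 2.80 and 3.65 CPM in shNC. In each of them shECM1 replicate 3 was the highest library of all and shECM1 replicate 1 the lowest. Without shECM1 replicate 3, the log2 fold change of H4C5 was -1.58 (edgeR adjusted p = 0.183), against -0.58 with it, and that of H4C1 -1.50, against -0.24. The summed level of 25 S phase genes was also highest in shECM1 replicate 3, at 1874 CPM, and lowest in shECM1 replicate 1, at 1522 CPM, with 1558 to 1729 CPM in shNC. The part of S phase in the H4 values was not tested. H4C9 and H4C16, also tested, did not follow this order. H4C9 was at 1.39, 1.25 and 1.24 CPM in shECM1 replicates 1, 2 and 3, and H4C16 was highest in shECM1 replicate 1. Of the class sums, that of H2B was highest of all libraries in shECM1 replicate 3, at 90.9 CPM, but that of H1 was lowest there, at 39.2 CPM.

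Genes around the histone copies were read from lists of histone supply. Of 12 replication-independent histone genes, which are in general made also outside S phase, all were tested, 8 had a negative log2 fold change and the median was -0.21 (48.6% of all genes were negative and 51.4% positive, with a median of 0.01). edgeR called 0, with 3 lower and 0 higher at an unadjusted p under 0.05, against 14.2% lower and 8.31% higher among all genes. DESeq2 called 2 of the 12, H1-10 among them, against 6.04% of all genes. H1-10, a linker histone, was at 88.9 ± 6.31 CPM in shECM1 and 137.7 ± 43.6 CPM in shNC (DESeq2 adjusted p = 0.0362, edgeR adjusted p = 0.123), and H2AX, the variant phosphorylated at DNA breaks, whose gene is known to give a stem-loop message as well as a polyadenylated one, at 35 ± 5.31 and 49.2 ± 12.3 CPM in shECM1 and shNC (SD, n = 3 each). In H1-10 and H2AX too, shNC replicate 2 lay within the range of the shECM1 libraries, and without it edgeR called both lower (adjusted p = 0.000317 for H1-10 and 0.0045 for H2AX), in a fit that called 14.1% of all genes lower. H3-3B, which encodes the variant H3.3, was at 886.1 ± 75.7 CPM in shECM1 and 973.1 ± 126 CPM in shNC.

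Genes that make, process and place histones were read next. Of 33 genes of histone transcription and 3' end processing, 25 had a positive log2 fold change (median 0.10), against 51.4% of all genes. At an unadjusted p under 0.05, 5 of the 33 were higher and 2 lower, against 8.31% higher and 14.2% lower among all genes. The Sm proteins SNRPF and SNRPE, which sit in small nuclear ribonucleoproteins, were at 91.1 ± 0.642 and 102.9 ± 10.5 CPM in shECM1 and at 73.3 ± 7.33 and 79.1 ± 12.3 CPM in shNC. CDK2, the S phase kinase that acts on the histone activator NPAT, was at 48.6 ± 2.05 CPM in shECM1 and 63.7 ± 9.99 CPM in shNC. SNRPB and the cleavage factor CPSF1 had log2 fold changes of 0.02 and -0.10. Of 18 decay genes, 15 were positive (median 0.18), against 51.4% of all genes, and 4 were higher and 0 lower at an unadjusted p under 0.05, against 8.31% and 14.2% of all genes. LSM5 and LSM6, of the LSM rings that bind RNA ends, stood at 0.31 and 0.43, and the mitochondrial nuclease PNPT1 at 0.50, while EXOSC10 and UPF1 stood at 0.13 and -0.05.

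Of 25 chaperone and assembly genes 18 were positive (median 0.12), against 51.4% of all genes. At an unadjusted p under 0.05, 2 of the 25 were higher and 3 lower, and these counts are near the shares among all genes (8.31% higher and 14.2% lower). SUPT16H, a subunit of the FACT complex, was at 202.6 ± 1.92 CPM in shECM1 and 160.6 ± 24.9 CPM in shNC, and its partner SSRP1 had a log2 fold change of 0.15. NAP1L1 and CABIN1 had values of 0.15 and -0.26. HJURP, the chaperone of the centromeric histone CENPA, was at 59.5 ± 7.38 CPM in shECM1 and 92.7 ± 28.3 CPM in shNC, and DESeq2 called it lower (adjusted p = 0.0318, edgeR adjusted p = 0.117). Of 25 S phase genes, 13 were positive and 12 negative (median 0.01), with 2 higher and 2 lower at an unadjusted p under 0.05, against the same 8.31% and 14.2% of all genes. RRM2, a ribonucleotide reductase subunit, was at 42.6, 46.6 and 39.3 CPM in shECM1 and at 81.6, 42.7 and 106.2 CPM in shNC (log2 fold change -0.84 ± 0.25, DESeq2 adjusted p = 0.0163, edgeR adjusted p = 0.115). The helicase subunits MCM4, MCM6 and MCM7 stood at 0.34, 0.35 and 0.13, and RRM1 at 0.01. edgeR called no gene of these lists. Without shNC replicate 2 it called 9.73% of all genes higher and 14.1% lower. Of the list genes it then called 0 higher and 4 lower of 12 replication-independent histones, 6 and 1 of 33 transcription and processing genes, 4 and 0 of 18 decay genes, 5 and 2 of 25 chaperone genes, and 1 and 6 of 25 S phase genes. Among the genes named above these were SNRPF, SNRPE, LSM5, LSM6, PNPT1, SUPT16H and MCM6, which were higher, and H1-10, H2AX, CDK2, HJURP and RRM2, which were lower.

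**Figure D5:**
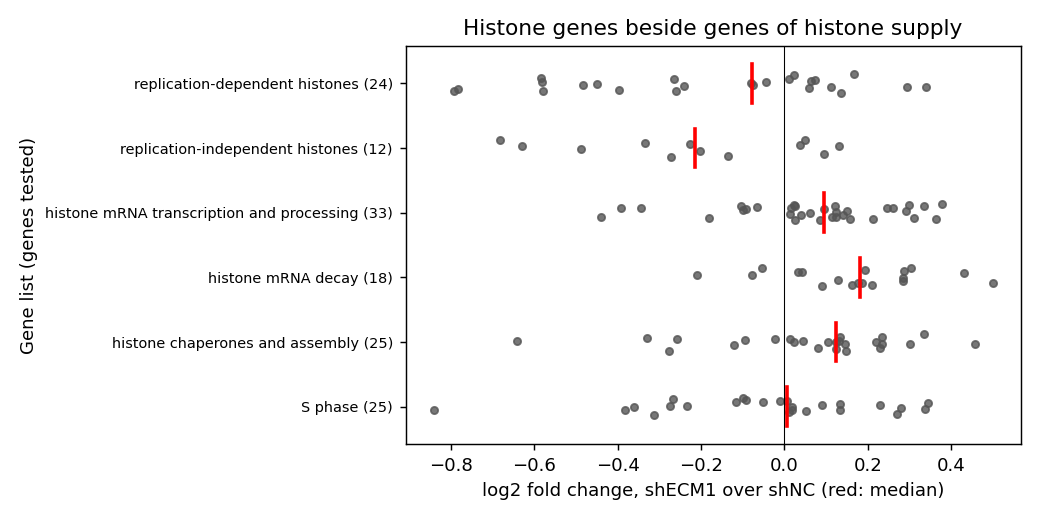
Log2 fold change (shECM1 over shNC) of each tested gene in the histone group and in 5 lists of histone supply, with the median of each list in red. The medians run from -0.21 in replication-independent histones to 0.18 in decay genes, and that of the 24 replication-dependent copies is -0.08.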

How the data were processed

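The authors deposited whole-number raw counts per gene for each of the 6 libraries. The submitters' processing notes list fastp, STAR, featureCounts, DESeq2 and Seurat and the builds GRCh38 and hg38. Which tool made the counts, and with which settings, is not given in the sources used here. Symbols were found for 20462 of 20476 identifiers. Counts were analysed with edgeR 4.0.16 in R 4.3.3 (filterByExpr with the group as design, TMM factors, glmQLFit and glmQLFTest, no covariate), with Benjamini-Hochberg adjustment over all 12576 genes tested and a threshold of 0.05. Levels are TMM-normalised CPM, and a standard error (SE) was taken as the absolute log2 fold change over the root of its F statistic. The procedure was tested on simulated data. Intervals from counts cover counting error only. Alternatives were RLE, upper-quartile and no scaling factors, no filter, 50 counts in 3 samples, DESeq2 1.42.0 on the same filtered genes, limma-voom (limma 3.58.1), the replicate number as a block and leaving out each library. Text names ECM1, the 3 genes of highest CPM per class, the 5 of smallest p per direction, genes at the count limit, and the 2 of highest CPM and 3 of smallest p per list. Other named genes were chosen after their values were seen. Members and lists were chosen with earlier results of these data known. Of the genes this rule gives, 1 result is not reported here.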

Additional observations from a re-analysis of the deposited data

How the results depend on the processing

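All results rest on 3 libraries a group, and most copies on few counts, so moderate changes of the low copies were not detectable at this depth. edgeR called 0 genes in all, against 505 with no count filter, 701 by DESeq2 and 0 to 3037 when 1 library was left out, the 3037 without shNC replicate 2. Histone genes called numbered 0, against 0 to 3 with 1 library left out. At an unadjusted p under 0.05 there was 1 histone gene, against 3 with no count filter, 0 by limma-voom, 0 with the replicate number as a block and 0 to 4 with 1 library left out. Their median log2 fold change of -0.08 was 0.033 among the 8 genes with 50 counts in 3 samples, and -0.35 to 0.032 with 1 library left out. Copies with 10 counts in 3 libraries numbered 26, against 8 with 50 counts and 60 with 1 count in 1 library. The log2 ratio of summed CPM stayed between -0.12 and -0.005 with 1 library left out. The sign of small fold changes turned for H4C8 (-0.044 by limma-voom and -0.038 with the block) and H3C10 (-0.025 by limma-voom). Leaving out 1 library turned the sign within -0.16 to 0.027 for H1-2, -0.14 to 0.37 for H2AC15, -0.073 to 0.24 for H2BC12, -0.49 to 0.087 for H3C6, -0.17 to 0.26 for H3C10, -0.39 to 0.25 for H4C8, -1.50 to 0.28 for H4C1, -0.039 to 0.087 for SNRPB, -0.16 to 0.016 for UPF1, -0.0089 to 0.23 for MCM7 and -0.029 to 0.051 for RRM1. The causes were not tested. Same-numbered libraries did not deviate together (correlations -0.07, -0.05 and -0.18), so the number was not taken as a pairing. With the replicate number as a block the histone median was -0.057.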

Other observations

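Among the 42 copies that did not have 10 counts in 3 libraries, the groups lay apart in CPM in 6, on very few counts. H2BC7, H3C8, H3C13, H3C2 and H4C4 were lower in shECM1 and H4C14 was higher. Among all genes tested, which have more counts, the groups lay apart in 24.4% (13.2% lower and 11.2% higher), so 6 of 42 is not above the background. H3C13 had 2, 7 and 5 counts in shECM1 and 7, 6 and 10 in shNC, and H3C2 had 3, 3 and 3 in shECM1 and 5, 8 and 5 in shNC. H2BC13 had 3, 2 and 16 counts in shECM1 and 2, 3 and 6 in shNC. None of these copies was tested with the count filter in place, and their counts are too low to read a change from.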
